A study of Mus musculus with 10 samples.

Results

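Border macrophages line the surfaces and vessels of nervous tissue, and this account follows the cells of mouse optic nerve and retina that carry their marker genes. Among 1168 cells labelled as macrophages or microglia, 66 (5.65%) were chosen by their measured values: at least 1 unique molecular identifier (UMI, the tag of a captured RNA molecule) in 3 or more of 7 genes. The genes were Mrc1, F13a1, Stab1, Cbr2, Pf4, Cd163 and Lyve1. The other 1102 cells of the same libraries served as the comparison. The cells are called border-type macrophages, after their label and the rule.

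The cells came from wildtype mice of strain 129S1/SvlmJ, of both sexes and 10 weeks old by the design text. The strain label adds P56, an earlier age, and the difference was not resolved. Injured mice had received an optic nerve crush, which damages the axons of retinal ganglion cells, at 8 weeks and were sampled 2 weeks later. RNA was captured with droplet-based 3' chemistry from injured retina, uninjured retina, injured optic nerve and uninjured optic nerve. The 10 samples formed 8 libraries that the table tells apart, 2 in each of the 4 groups, because injured retina samples 1 and 2 shared a pool, as did samples 3 and 4. The uninjured groups received no stated sham operation. Animals within a library cannot be told apart, and p-values rest only on the spread between libraries, which may be technical. With so few libraries, the main gene test takes that spread mostly from all genes together. Its p-values therefore do not measure the spread of a single gene between libraries.

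Border-associated macrophages sit in the meninges, around blood vessels and in the choroid plexus, whereas microglia sit in the tissue itself. Both lineages share receptors and transcription factors. The mannose receptor Mrc1 (CD206), the scavenger receptors Stab1 and Cd163, and the hyaluronan receptor Lyve1 mark border cells. So do the transglutaminase subunit F13a1, the carbonyl reductase Cbr2 and the chemokine platelet factor 4 (Pf4). Border macrophages take up blood- and fluid-borne material, present antigen and attract leukocytes. Optic nerve is surrounded by meninges, while retina has vessels but no meningeal sheath.

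Libraries differed in ways that bear on all results. All 66 border-type macrophages came from optic nerve, and 38 of them from uninjured nerve library 2. Libraries held 12 to 682 cells and 56823 to 5213535 UMIs in the genes used. Border-type macrophages were deeper than the other cells, with a median of 7518 UMIs against 1762 in the other optic nerve cells, and a deeper cell reaches 3 positive genes more easily. Only 2 barcodes occurred in 2 cells each, and 0 border-type macrophages carried them. No doublet caller was run.

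The 7 genes chose the cells, so their values are given as a description. Mrc1 was seen in 62 of the 66 cells (93.9%), Stab1 in 58 (87.9%), F13a1 in 53 (80.3%), Pf4 in 52 (78.8%), Cbr2 in 40 (60.6%), Cd163 in 28 (42.4%) and Lyve1 in 25 (37.9%). Among the other 1102 cells, Pf4 was seen in 238 (21.6%), Stab1 in 153 (13.9%), Mrc1 in 20 (1.81%), F13a1 in 10 (0.907%) and Cbr2 in 4 (0.363%). Cd163 and Lyve1 were seen in 0 of those 1102 cells, which allows a share of up to 0.272%. Pf4 and Stab1 were thus the least selective of the 7 genes in these libraries.

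Membership was graded. All 7 genes were seen in 11 cells, 4 or more in 51 cells and exactly 3 in 15 cells. The 15 cells just inside the threshold lay in injured nerve library 3 (9 cells) and uninjured nerve library 2 (6 cells). Just outside it were 53 cells with exactly 2 of the genes, of which 49 came from injured nerve library 3. In that library the cells with exactly 3 genes held 277 Mrc1 and 430 Pf4 UMIs per 1000000 UMIs of these cells (CPM), and the cells with exactly 2 held 15.7 Mrc1 and 373 Pf4 CPM. Both sets are defined by the number of rule genes seen, so these levels only describe the threshold.

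The share of border-type macrophages was counted in each library. Uninjured nerve library 2 held 38 in 103 cells (36.9%, exact Clopper-Pearson 95% interval 27.6% to 47.0%) and uninjured nerve library 4 held 1 in 28 (3.57%, 0.0904% to 18.4%). Injured nerve library 1 held 8 in 146 cells (5.48%, 2.40% to 10.5%) and injured nerve library 3 held 19 in 682 (2.79%, 1.69% to 4.32%). Library 2 stood apart from the other 3 nerve libraries, whose intervals overlapped. Intervals cover counting error only.

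**Figure D1:**
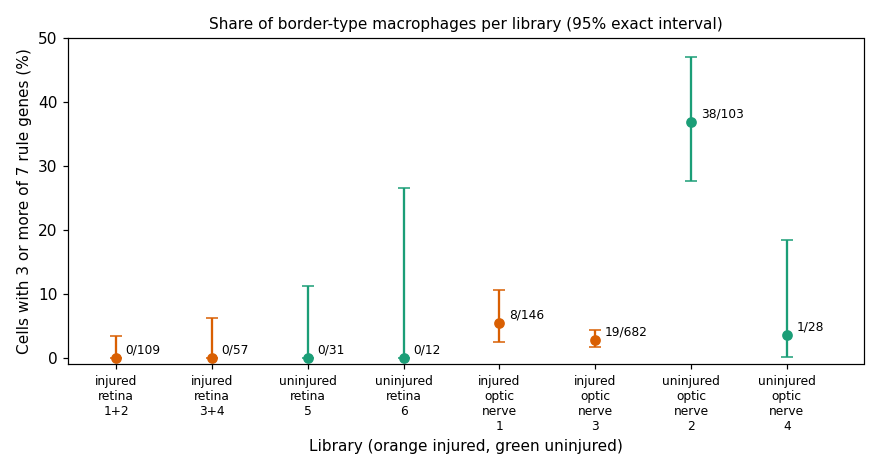
Percentage of cells with a UMI in 3 or more of the 7 rule genes (y axis) in each of the 8 libraries (x axis). Points are shares, bars are exact Clopper-Pearson 95% intervals and labels give cells over all cells. The 4 retina libraries are at 0%, and uninjured nerve library 2 is at 36.9%.

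Retina held 0 border-type macrophages in 109, 57, 31 and 12 cells, and a count of 0 allows shares of up to 2.75%, 5.26%, 9.68% and 25%, respectively. In all 4 retina libraries Cbr2, Pf4, Cd163 and Lyve1 were at 0 UMIs. Mrc1 was seen in 2 of 57 cells of the injured retina pool of samples 3 and 4, and F13a1 in 3 of 109 cells of the other pool. Stab1 was seen in 30, 10, 9 and 6 retina cells of the libraries in the order above. The retina cells therefore carried 1 or 2 of the genes at most.

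The optic nerve share exceeded the retina share by 12.2 percentage points, averaged over injury states, and was higher in 4 of 4 nerve libraries. The exact two-sided permutation test that reassigned tissue within each injury state gave p = 0.0556, the smallest that its 36 assignments allow. Without uninjured nerve library 2 the difference was 3.85 points, and without uninjured retina library 5 or 6 the exact permutation p was 0.389. Cells were also compared at a common depth of 1000 UMIs, which left out 276 optic nerve cells, 4 of them border-type. The expected shares were then 8.90% and 0.552% in injured nerve libraries 1 and 3, 30.1% and 4.36% in uninjured nerve libraries 2 and 4, and 0% in the retina libraries.

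The share was also compared between injured and uninjured tissue. The mean share was 4.13% in injured and 20.2% in uninjured optic nerve, and 0% in both retina groups, a difference of -8.05 points averaged over tissues. The exact two-sided permutation test within tissue gave p = 0.667, where the smallest possible value was 0.333, so the design could not reach 0.05. The difference became 0.281 points without uninjured nerve library 2 and -16.4 points without uninjured nerve library 4.

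Genes outside the rule were compared between the border-type macrophages and the other cells of the 3 libraries with at least 5 of them, injured nerve libraries 1 and 3 and uninjured nerve library 2. These held 65 border-type macrophages and 866 other cells. The rule did not read these genes, but they belong to the same cells, so the tests ask whether a difference recurred in the 3 libraries. The monocyte chemokine Ccl2, other border macrophage genes, some interferon-inducible genes and the transcription factor Maf were higher in border-type macrophages, and the matricellular gene Sparc, the protease inhibitor Serpine2 and the glutamate transporter Slc1a3 were lower. With limma on the mean natural-log value per library and class, 144 of 4895 genes (2.94%) passed a Benjamini-Hochberg adjusted p of 0.05, 130 higher (2.66%) and 14 lower (0.286%), and the median difference over all genes was 0.08.

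Depth moved with this comparison, and the split of the calls moved with the method. On simulated counts with these libraries' depths, limma on mean ln values called some unchanged genes higher and none lower, whereas edgeR and DESeq2 called none of the unchanged genes. A higher call by limma alone is therefore weak, and edgeR and depth-matched values are given beside the limma values. On summed UMIs, edgeR called 99 genes (2.02%), 45 higher (0.919%) and 54 lower (1.1%). Higher calls were 45.5% of the calls in edgeR and 90.3% in limma. With each border-type macrophage set against the nearest other cell of its library in UMIs, limma called 28 of 6043 genes (0.463%), 24 higher (0.397%) and 4 lower (0.0662%). That match was incomplete in uninjured nerve library 2, where the matched cells held a median of 2608.5 UMIs against 4287. All 3 fits called 17 genes higher and 4 lower, and all 21 were also called without injured nerve library 3. The 17 were Ccl2, Ccl12, Cxcl2, Dab2, Ehd4, Emp1, Fcrls, Ifi207, Ifitm3, Ltc4s, Maf, Metrnl, Mndal, Ms4a6b, Ms4a6c, Ms4a7 and Tgfbi, and the 4 were Lag3, Serpine2, Slc1a3 and Sparc.

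**Figure D2:**
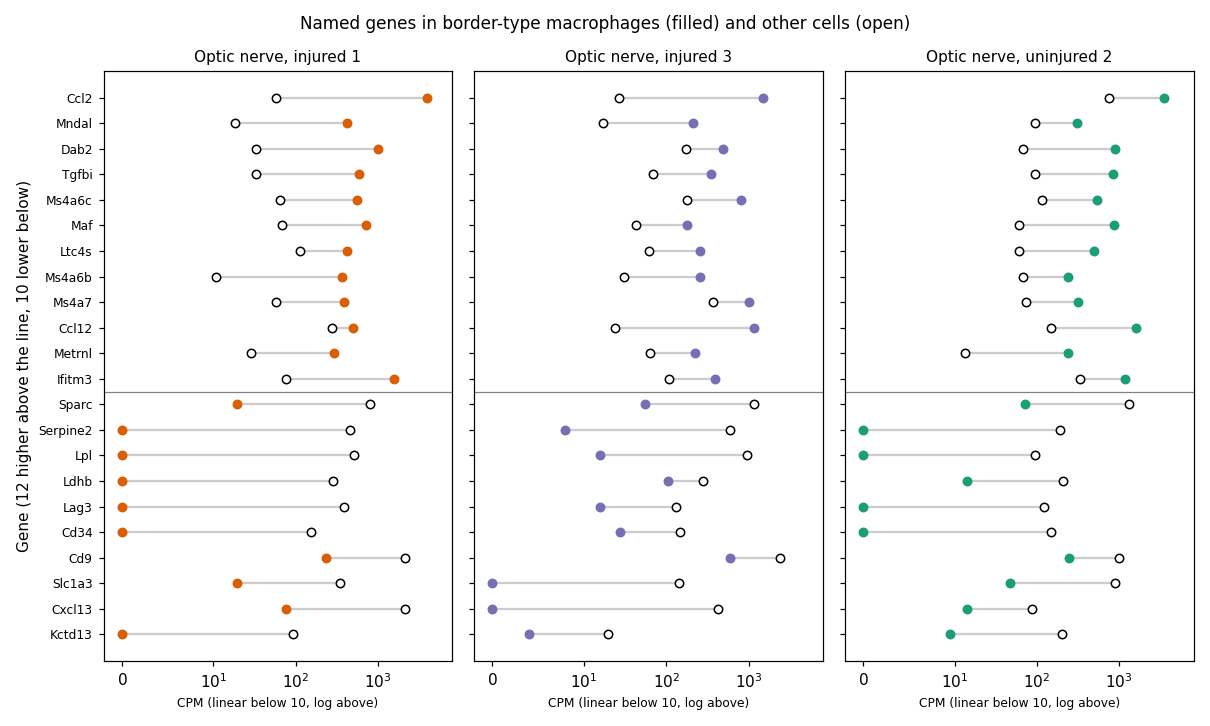
CPM (x axis, linear below 10 and logarithmic above) of 22 genes (y axis) in 3 optic nerve libraries (panels). Filled points are border-type macrophages and open points the other cells of the same library. In each panel the filled points of the upper 12 genes lie to the right of the open points, and those of the lower 10 genes lie to the left.

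The gene with the smallest limma p was a chemokine. Ccl2, which recruits Ccr2-bearing monocytes, held 3904, 1514 and 3536 CPM in border-type macrophages of injured nerve 1, injured nerve 3 and uninjured nerve 2, against 58.0, 26.9 and 762 in the other cells. The groups did not overlap. The difference of mean ln values was 2.28 ± 0.28 (SE, 3 libraries, limma adjusted p = 0.000616), and 4.76 on the log2 scale in edgeR (adjusted p = 0.00186). Its neighbour Ccl12 held 500, 1179 and 1623 CPM against 275, 23.6 and 148 (limma adjusted p = 0.00166; edgeR log2 difference 3.45, adjusted p = 0.0254). In uninjured nerve 4, which was not fitted, the other cells held 2101 CPM of Ccl12 and the 1 border-type macrophage 1692. Ccl2 was seen in 7 of 8, 12 of 19 and 29 of 38 border-type macrophages of the fitted libraries. It was seen in 5 of 138, 34 of 663 and 9 of 65 other cells. Ccl2 therefore passed the filter of a UMI in 10% of the fitted cells only through the class where it was high. The same holds for genes below such as Mndal, C5ar1 and Cp. In the other direction, Serpine2, Lpl, Cxcl13 and Lag3 passed the filter only through the other cells, where they were high. The p-values of all these genes carry that limit.

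Ccl7, another ligand of the same receptor family, missed the filter of a UMI in 10% of the fitted cells because few other cells held it. It stood at 2577, 1802 and 1918 CPM in border-type macrophages and 3.62, 21.8 and 6.75 in the other cells, given as a description with no test. The neutrophil chemokine Cxcl2 held 2481, 4837 and 2704 CPM against 196, 877 and 290 (limma difference 1.19 ± 0.23, adjusted p = 0.00688). Of 11 chemokines tested, 3 rose and 1 fell with limma, with a median difference of 0.02 beside 0.08 over all genes, so the list as a whole did not stand higher. The one that fell, the B cell attractant Cxcl13, held 76.9, 0 and 14.3 CPM against 2111, 430 and 87.7 (difference -0.62 ± 0.16, adjusted p = 0.0337).

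Uptake receptors and adaptors formed the next group. The endocytic adaptor Dab2, which links lipoprotein receptors to clathrin, held 1000, 493 and 890 CPM in border-type macrophages and 32.6, 172 and 67.5 in the other cells (limma difference 1.78 ± 0.24, adjusted p = 0.000616; edgeR log2 difference 3.25). Levels in injured nerve 3 were the closest to each other. Gas6, a bridging ligand for clearance of dying cells, held 1019, 189 and 757 CPM against 61.6, 204 and 60.7. It passed limma (difference 1.18 ± 0.23, adjusted p = 0.00686) but not edgeR (adjusted p = 0.0988), and in injured nerve 3 its level was below that of the other cells. Of 15 scavenger and uptake receptor genes tested, 4 rose and 0 fell with limma, and edgeR called 1, Dab2. Over all genes, 2.66% rose with limma and 0.919% with edgeR.

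Other genes known from border macrophages moved with the rule genes. Of 19 tested, 14 rose and 0 fell with limma (median difference 0.86 beside 0.08 over all genes), 7 rose and 0 fell with edgeR, and 8 of 29 rose in the depth-matched fit. The list was chosen with earlier results of these data known, so these counts are not independent support for the label. Folr2 passed limma (adjusted p = 0.0151) but not edgeR (adjusted p = 0.107), and in injured nerve 3 it held 19.7 CPM against 37.3. The secreted matrix protein Tgfbi held 596, 351 and 838 CPM against 32.6, 69.6 and 94.5 (limma difference 1.48 ± 0.20, adjusted p = 0.000616). The leukotriene C4 synthase Ltc4s held 423, 260 and 500 against 112, 61.7 and 60.7 CPM (difference 1.06 ± 0.16, adjusted p = 0.00157). Both genes were higher in all 3 libraries without overlap.

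Genes of the Ms4a family of membrane proteins rose as well. Ms4a7, used to tell border macrophages from microglia, held 385, 1017 and 319 CPM in border-type macrophages and 58.0, 368 and 74.2 in the other cells (limma difference 1.20 ± 0.18, adjusted p = 0.00166). For Ms4a6c the limma difference was 1.34 ± 0.18 and for Ms4a6b 0.86 ± 0.13. Near-identical copies within the Ms4a6, Ccl2/Ccl12, Ifitm, Ifi200 (Mndal, Ifi207) and H2 families may have split or shared reads, which makes the level of a single copy uncertain. The counting rule for such reads is not given in the sources used here.

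Promoter sequence is shown for Dab2 and Ccl12, 2 of the genes that all 3 fits called higher and whose windows held 2 of the 3 motifs searched. Windows of 300 bases, from 250 before to 50 after the start, came from RefSeq (GRCm38.p6), and 10 of the 12 named higher genes matched an entry. Capitals mark GAGGAA, the core bound by the myeloid factor PU.1, and TGCTGA, a half-site bound by MAF proteins, on either strand; TTCCTC and TCAGCA are their reverse complements. The capitals do not overlap each other in these windows. The Dab2 window is chr15:6299539-6299838, plus strand, and the Ccl12 window is chr11:82101595-82101894, plus strand.
Dab2 promoter: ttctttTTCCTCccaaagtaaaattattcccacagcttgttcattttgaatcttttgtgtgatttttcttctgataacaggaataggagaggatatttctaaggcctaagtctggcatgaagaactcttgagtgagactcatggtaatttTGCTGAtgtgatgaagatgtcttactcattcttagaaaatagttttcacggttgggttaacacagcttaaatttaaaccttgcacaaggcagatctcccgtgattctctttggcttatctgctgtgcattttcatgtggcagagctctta
Ccl12 promoter: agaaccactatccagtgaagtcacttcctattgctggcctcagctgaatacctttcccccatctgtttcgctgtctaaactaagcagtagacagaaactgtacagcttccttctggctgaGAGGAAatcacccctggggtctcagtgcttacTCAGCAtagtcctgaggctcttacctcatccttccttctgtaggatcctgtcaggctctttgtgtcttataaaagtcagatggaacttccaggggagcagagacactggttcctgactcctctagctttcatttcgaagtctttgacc
In Dab2 the letters of the PU.1 core began 244 bases and the MAF half-site 100 bases before the start, and in Ccl12 they began 130 and 98 bases before it. Of the 10 matched named genes, 4 held GAGGAA and 2 held TGCTGA, against 28.3% and 19.5% of 32851 mouse promoter windows on either strand. The AP-1 motif TGAGTCA was in 0 of the 10 and in 5.20% of all windows. A match describes letters and not binding.

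Transcription factor genes of myeloid cells were tested next. Maf, a factor of tissue macrophages, held 712, 177 and 876 CPM in border-type macrophages and 68.8, 42.5 and 60.7 in the other cells (limma difference 1.53 ± 0.21, adjusted p = 0.000660; edgeR log2 difference 3.03, adjusted p = 0.00294). Klf4 and Klf2, Krüppel-like factors of quiescent myeloid and endothelial cells, passed limma (1.17 ± 0.19 and 1.53 ± 0.25) and edgeR (adjusted p = 0.0124 and 0.0363) but not the depth-matched fit (adjusted p = 0.139 for both). In all, 7 of 22 such factors rose with limma, 3 with edgeR and 1, Maf, after depth matching. Over all genes, 2.66%, 0.919% and 0.397% rose in these fits.

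Interferon-inducible genes, part of antiviral defence, came next. Of 8 tested, 5 rose and 0 fell with limma (median difference 0.80 beside 0.08 over all genes) and 4 rose with edgeR. In the depth-matched fit 3 of 12 rose. Over all genes, 2.66%, 0.919% and 0.397% rose in limma, edgeR and the depth-matched fit. The antiviral membrane protein Ifitm3 held 1558, 394 and 1171 CPM in border-type macrophages against 76.1, 107 and 331 (limma difference 1.40 ± 0.22, adjusted p = 0.00176). Mndal, a nuclear protein of the Ifi200 family, held 423, 213 and 309 against 18.1, 17.0 and 94.5 CPM (1.21 ± 0.15, adjusted p = 0.000616). It was seen in 6, 18 and 27 border-type macrophages and in 3, 44 and 5 other cells, and passed the filter only through the former. Ifi207, of the same family, rose by 1.38 ± 0.23.

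Complement and Fc receptor genes were tested as well. The receptor for complement fragment C5a, C5ar1, held 135, 154 and 305 CPM against 7.24, 22.6 and 40.5 (limma difference 0.63 ± 0.11, adjusted p = 0.00336; edgeR adjusted p = 0.00212; depth-matched adjusted p = 0.0716). C4b, a complement cascade protein, held 2442, 51.2 and 1761 CPM against 406, 58.6 and 182, so the difference lay in libraries 1 and 2 (limma 1.79 ± 0.37, adjusted p = 0.0125; edgeR adjusted p = 0.115). The C1q chain genes C1qa, C1qb and C1qc did not pass (limma adjusted p = 0.344, 0.466 and 0.607). Among 12 Fc receptor and lectin genes, 5 rose with limma, beside 2.66% over all genes, and edgeR called 2 higher and 2 lower. The 5 were led by the C-type lectin Clec4a3 (0.68 ± 0.11) and the inhibitory Fc receptor Fcgr2b (1.02 ± 0.20). Clec4a3 passed edgeR (adjusted p = 0.000993) but not the depth-matched fit (adjusted p = 0.0644), and Fcgr2b passed neither (adjusted p = 0.0868 and 0.304).

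Calls of class II antigen presentation genes depended on the test. H2-Aa held 2558, 5452 and 2356 CPM in border-type macrophages and 482, 395 and 1761 in the other cells (limma 1.15 ± 0.32, adjusted p = 0.0603; edgeR 2.25, adjusted p = 0.0472). It was seen in 2 of 8, 14 of 19 and 17 of 38 border-type macrophages. Of 9 genes in the class II list tested, limma called 2 higher, the costimulatory ligand Cd86 and the peptide-loading chain H2-DMb1, and neither passed edgeR (adjusted p = 0.266 and 0.0988) or the depth-matched fit. DESeq2 called 4 others, H2-Aa (adjusted p = 0.00478), H2-Ab1 (0.0182), H2-Eb1 (0.0268) and the invariant chain Cd74 (0.0465). The 2 limma calls of 9 stand beside 2.94% over all genes. Without injured nerve library 3, 0 of the 9 passed limma.

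Genes of microglial identity were called in both directions. Sparc, a collagen-binding protein that microglia express, held 19.2, 55.2 and 71.4 CPM in border-type macrophages against 811, 1170 and 1329 (limma difference -1.31 ± 0.17, adjusted p = 0.000616; edgeR -4.42, adjusted p = 0.000192). The serine protease inhibitor Serpine2 was at 0, 7.89 and 0 CPM against 460, 593 and 189, where 3 counts would be 57.7 and 14.3 CPM in injured nerve 1 and uninjured nerve 2 (difference -0.79 ± 0.13, adjusted p = 0.00246). Fcrls, an Fc receptor-like gene used as a microglial marker, was higher in border-type macrophages, at 96.2, 607 and 295 against 18.1, 133 and 40.5 CPM (0.80 ± 0.15, adjusted p = 0.00686). In total 3 of 23 tested rose and 2 fell with limma, beside 2.66% and 0.286% over all genes. With edgeR 2 rose and 4 fell, and in the depth-matched fit 2 rose and 2 fell. The 3 were Fcrls, Ltc4s, which is also in the border macrophage list, and P2ry6. Fcrls and Ltc4s passed all 3 fits, whereas P2ry6 passed neither edgeR nor the depth-matched fit (adjusted p = 0.544 in both).

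Genes of the lipid-handling programme of microglia around damage gave calls that depended on the test. With edgeR 9 of 23 fell and 1 rose, with limma 2 fell and 1 rose (median -0.19 beside 0.08 over all genes), and in the depth-matched fit 0 of 23 were called. Lipoprotein lipase, Lpl, was at 0, 15.8 and 0 CPM against 511, 963 and 94.5 (limma -0.69 ± 0.15, adjusted p = 0.0144; depth-matched adjusted p = 0.139). The tetraspanin Cd9 held 231, 591 and 248 CPM against 2115, 2403 and 985 (-1.21 ± 0.28, adjusted p = 0.0232; without injured nerve 3 adjusted p = 0.0602; depth-matched adjusted p = 0.125). Osteopontin, Spp1, held 96.2, 986 and 4.76 against 982, 14010 and 81.0 CPM, which passed edgeR (-3.73, adjusted p = 0.000993) and not limma (adjusted p = 0.0855). The exception, lysozyme Lyz2, rose by 2.24 ± 0.49 (limma adjusted p = 0.0158; depth-matched adjusted p = 0.0861), at 18190, 23260 and 15550 CPM against 1746, 14160 and 1768.

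Immediate early genes, which answer stimulation within minutes and also rise during tissue dissociation, were above 0 for 19 of 19 genes in limma. Of these 6 rose with limma (median difference 1.02 beside 0.08 over all genes), 0 with edgeR and 0 after depth matching. The share of all genes that rose with limma was 2.66%. Fos held 808, 4794 and 3836 CPM in border-type macrophages against 645, 1571 and 1957 (limma 1.60 ± 0.39, adjusted p = 0.0315; edgeR adjusted p = 0.304). The calls in this list therefore rested on the limma fit to all other cells. At an unadjusted p of 0.05, 521 genes passed edgeR and 499 the depth-matched fit.

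Markers of other cell types were checked in the same cells. T and natural killer cell genes summed to 0, 0 and 4.76 CPM in border-type macrophages of the 3 libraries, with 1 of 16 genes seen in uninjured nerve 2, and mast cell genes to 0 in all. Endothelial genes summed to 0, 23.6 and 42.8 CPM, with Cldn5 at 0, and monocyte genes to 173, 895 and 266 against 239, 1275 and 796 in the other cells. Mural and fibroblast genes summed to 385, 51.2 and 1490 CPM against 467, 213 and 6464. Astrocyte and Muller glia genes summed to 500, 351 and 609 against 1036, 451 and 2625. Dendritic cell genes summed to 404, 221 and 381 against 590, 255 and 513. Oligodendrocyte genes were present at 3981, 1861 and 8210 CPM, against 8055, 3595 and 21340 in the other cells, with 9, 11 and 14 of 14 genes seen. The part of this oligodendrocyte signal in the comparisons was not tested. Cells with at least 5 of the oligodendrocyte gate genes numbered 4 of 66, and cells in the T cell and endothelial gates 0.

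Border-type macrophages of injured nerve library 3 differed from those of libraries 1 and 2 in several border genes, and the label is least certain for them. Their median was 13338 UMIs, against 6052.5 in injured nerve 1 and 4287 in uninjured nerve 2. A deeper cell can meet the rule at lower CPM. The levels of the rule genes Lyve1 and F13a1 are therefore a description only, whereas Folr2, Fcna and Ccl24 lie outside the rule. Lyve1 was at 654 and 657 CPM in injured nerve 1 and uninjured nerve 2, and at 0 in the 19 cells of injured nerve 3, where 3 counts would be 11.8 CPM. The folate receptor gene Folr2 held 808, 19.7 and 814 CPM in injured nerve 1, injured nerve 3 and uninjured nerve 2, and the ficolin Fcna 404, 0 and 809. For the eosinophil chemokine Ccl24 the levels were 1038, 0 and 233, and for F13a1 1365, 82.8 and 1123 CPM. The 2 libraries that shared high levels came from opposite injury states. Not all border macrophage genes followed this order. Ms4a7 held 385, 1017 and 319 CPM and Ms4a6c 558, 812 and 538 in injured nerve 1, injured nerve 3 and uninjured nerve 2.

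**Figure D3:**
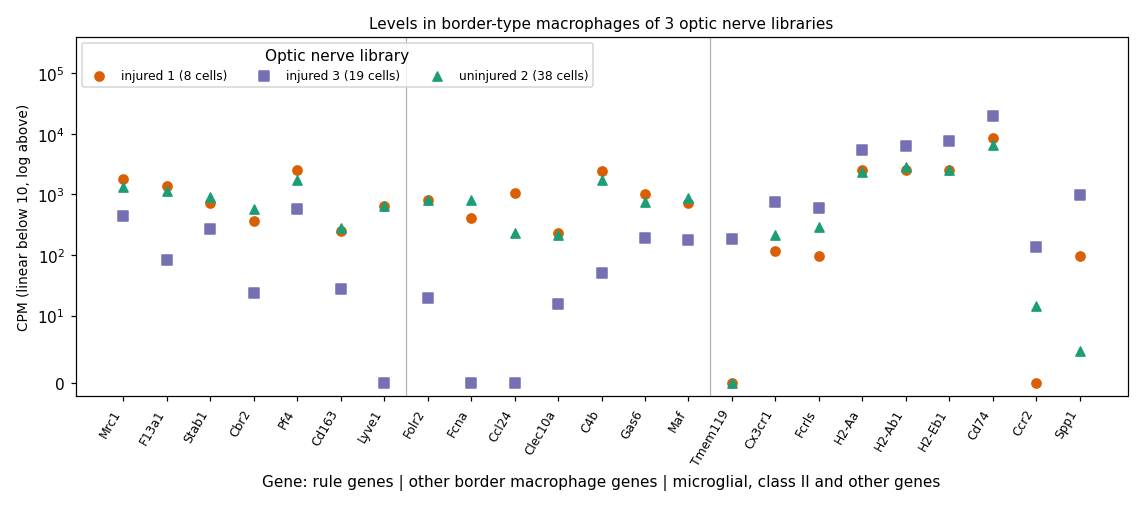
CPM (y axis, linear below 10 and logarithmic above) of 23 genes (x axis) in border-type macrophages of 3 optic nerve libraries (symbols). Lines separate rule genes, other border macrophage genes, and microglial, class II and other genes. The squares of injured nerve 3 lie below both other symbols for the 14 border genes shown and above them for the last 9 genes. The genes shown were chosen after their values were seen, and others of the same lists did not follow this order.

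The same 19 cells held more of several microglial and class II genes, though not of all. Tmem119, a microglial membrane protein, was seen in 10 of them at 185 CPM and was at 0 in the border-type macrophages of the other 2 libraries. The fractalkine receptor Cx3cr1 held 115, 745 and 214 CPM in injured nerve 1, injured nerve 3 and uninjured nerve 2. The class II invariant chain Cd74 held 8423, 19730 and 6502, and the monocyte receptor Ccr2 held 0, 134 and 14.3 CPM. In the same order, the microglial gene Siglech held 19.2, 15.8 and 52.4 CPM and Cd86 365, 185 and 205, lowest in injured nerve 3. These levels were not tested between libraries, since each library is a single unit.

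A gate for microglial genes, 3 or more of 7, took 13 of the 19 cells in injured nerve 3, 2 of 8 in injured nerve 1 and 6 of 38 in uninjured nerve 2. Without the gated cells, the 6 cells left in injured nerve 3 still held 0 Lyve1 UMIs, and they held 10630 H2-Aa and 39870 Cd74 CPM, more than the gated cells (4092 and 14430). Leaving out all gated border-type macrophages, limma called 98 genes against other cells, 81 higher and 17 lower. Without injured nerve library 3 it called 114 of 3026 (3.77%), 89 higher (2.94%) and 25 lower (0.826%).

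Lyve1 divides border macrophages of some tissues into classes that differ in class II genes, so cells with and without a Lyve1 UMI were set side by side in uninjured nerve 2, with 19 cells of each kind and median depths of 4854 and 3720 UMIs. Lyve1-positive cells held 1712 H2-Aa and 4214 Cd74 CPM, and Lyve1-negative cells 3199 and 9498. Folr2 stood at 881 and 726 CPM, and Mrc1 at 1259 and 1473 CPM. With a single library these values have no replicate check. In injured nerve 1, where 5 cells had a Lyve1 UMI and 3 did not, H2-Aa was at 2848 CPM in the first and at 0 in the second, with 3 counts worth 567 CPM.

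The deposited table assigns cells to a class by Rbpms, an RNA-binding protein gene used to mark retinal ganglion cells, and 7 of the 66 border-type macrophages were in the Rbpms-positive class. These were 0 of 8 in injured nerve 1, 3 of 19 in injured nerve 3, 3 of 38 in uninjured nerve 2 and the only cell of uninjured nerve 4. Among the other cells the class held 1 of 138, 35 of 663, 3 of 65 and 1 of 27 cells of these libraries. The difference was not tested.

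Injury within border-type macrophages could be compared between 2 injured libraries and 1 uninjured library, with 1 residual degree of freedom, the lone uninjured library being assumed to vary like the injured ones. The limma SE of a gene came almost wholly from variance pooled over genes, here and in the interaction below. The inducible heat shock gene Hspa1b was lower after injury, at 19.2 and 134 CPM in injured nerve 1 and 3 against 2318 in uninjured nerve 2 (limma -1.91 ± 0.42, adjusted p = 0.0416). It was the only call among 5946 genes (0.0168%), and 44 passed an unadjusted p of 0.05. Its near-identical copy Hspa1a held 19.2 and 442 against 3555 CPM (limma -1.99 ± 0.53, adjusted p = 0.601). The single cell of uninjured nerve 4 held 338 CPM of each, and with that library included limma called 0 genes (53 at an unadjusted p of 0.05). In the other cells Hspa1b moved the same way, at 0 and 15.1 CPM in injured nerve 1 and 3. There it held 331 CPM in uninjured nerve 2 and 986 in uninjured nerve 4.

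With edgeR 21 of 5946 genes (0.353%) passed, 5 higher (0.0841%) and 16 lower (0.269%) after injury, and DESeq2 called 0 (29 at an unadjusted p of 0.05). Among them Spp1 rose by 6.68 on the log2 scale (adjusted p = 6.53e-05), at 96.2 and 986 CPM against 4.76. The other cells moved the same way, from 81.0 to 982 and 14010 CPM, and the edgeR interaction of Spp1 was 0.17 (adjusted p = 1.0). Retnla, a marker of alternatively activated macrophages chosen after its values were seen, fell by 7.67, at 19.2 and 0 against 895 CPM. It was seen in 1 of 8 and 0 of 19 cells of injured nerve 1 and 3. In uninjured nerve 2 it was seen in 7 of 38 cells and, at 4400 CPM, in the 1 cell of uninjured nerve 4. Tmem119 was also called, on the 10 cells of injured nerve 3. Spp1, Retnla and Tmem119 passed the filter of a UMI in 10% of the fitted cells only through the injury state where they were high. Their calls carry that limit.

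Genes of myelin were among the 16 lower calls, including Mog, Mag, Mal and Cldn11. Mal, a proteolipid of myelin membranes, held 38.5 and 3.94 CPM in border-type macrophages of injured nerve 1 and 3 against 290 in uninjured nerve 2 (edgeR -4.64, adjusted p = 0.000212). In the other cells of the same libraries it held 264, 34.6 and 1498 CPM, so the order of the libraries was the same in both classes. The part of oligodendrocyte RNA in these calls was not tested. Across the lists, limma called 1 heat shock gene and 0 genes of any other list with injury.

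Whether injury acted differently on border-type macrophages than on the other cells was tested as an interaction. Apolipoprotein E, Apoe, which carries lipid between cells, held 39340 and 72860 CPM in border-type macrophages after injury against 32110 without, and 63130 and 95180 against 4831 in the other cells. The injury difference of border-type macrophages was smaller by 3.16 (limma interaction -3.16, with 1 uninjured library). How Apoe itself varied between uninjured libraries could not be measured in this fit. Apoc1, an apolipoprotein encoded next to it, held 0 and 106 against 28.6 CPM in border-type macrophages and 398 and 3953 against 0 in the other cells (interaction -1.47 ± 0.34, adjusted p = 0.0281). These were the 2 calls among 4895 genes (0.0409%).

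**Figure D4:**
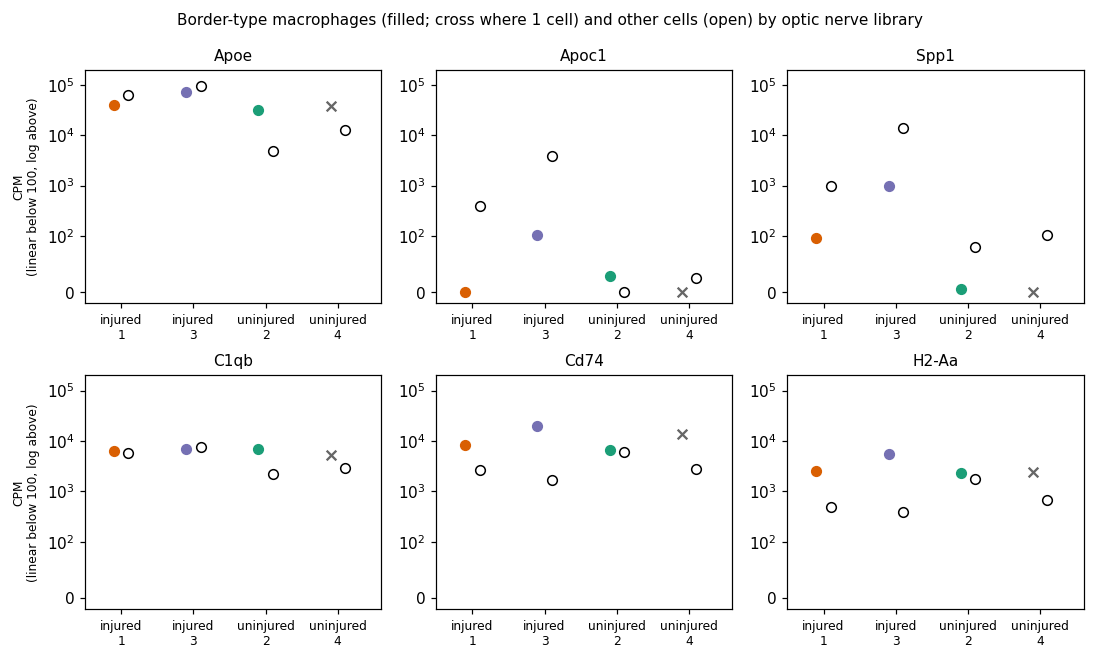
CPM (y axis, linear below 100 and logarithmic above) of 6 genes (panels) in the 4 optic nerve libraries (x axis). Filled points are border-type macrophages, a cross stands for the 1 cell of uninjured nerve 4 and open points are the other cells. For Apoe the open points run from 4831 to 95180 and the filled points from 32110 to 72860.

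The same fit with edgeR called 24 genes (0.490%), 9 with a more positive (0.184%) and 15 with a more negative (0.306%) injury difference in border-type macrophages, and DESeq2 called 0 (50 at an unadjusted p of 0.05). Both limma genes were among the 24. The class II genes Cd74 (2.27, adjusted p = 1.20e-05), H2-Eb1 (3.17), H2-Aa (2.49) and H2-Ab1 (2.21) were in the first set. Ccl2 was as well (adjusted p = 1.45e-05), with 3904 and 1514 against 3536 CPM in border-type macrophages and 58.0 and 26.9 against 762 in the other cells. The other cells of uninjured nerve 4, which was not fitted, held 51.9 Ccl2 CPM, near the injured libraries, and 843 H2-Eb1 CPM against 2908 in uninjured nerve 2. These interaction calls therefore rest on 1 uninjured library. The lysosomal proteases Ctsb (-2.91), Ctsd (-2.12) and Ctsz (-2.66) and the complement genes C1qb (-1.83) and C1qc (-1.84) were in the second. For C1qb the border-type macrophages held 6404 and 6864 against 6830 CPM, and the other cells 5672 and 7642 against 2213.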

How the data were processed

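Cells of both tissues were measured by droplet single-cell RNA sequencing. Per the submitters' processing notes, the authors used bcl2fastq 2.17.1.14, Cell Ranger 1.3, the mm10 genome and Seurat 4.0.3, with harmony and kept cells within limits on genes per cell. The deposited values are other than 1 unit: the authors deposited raw UMI counts for retina cells, and for optic nerve cells natural log (ln) values, ln(1 + 10000 × UMIs / cell total). The 1374534 ln values were turned back into UMIs, all whole within 0.01. Of 52181 entries, 31352 with an Ensembl identifier that matched a gene symbol were used. Uninjured retina held UMIs only up to entry 27998, which covers all 7 rule genes.

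Cells with a UMI in 3 or more of the 7 rule genes were compared with the other cells of their library. The main test, limma 3.58.1 with a trend, took each library's mean ln value in either class, with the library as block, over genes with a UMI in 10% of fitted cells and libraries with at least 5 such cells. Rule genes were not tested. Tested on simulated data with these depths, limma called some unchanged genes higher, while edgeR and DESeq2 called none of them. edgeR 4.0.16 quasi-likelihood (TMM) and DESeq2 1.42.0 on recovered UMIs summed per library and class were alternatives. Levels (CPM) are a gene's UMIs per 1000000 UMIs of the cells summed. Effects of limma are differences of mean ln values, those of edgeR are log2 fold changes, and adjusted p-values are Benjamini-Hochberg over all genes tested. Shares were compared by exact permutation tests, and intervals are exact Clopper-Pearson. The upper limit of a 0 is 3 counts and covers counting error only. The cells, gene lists and motifs were chosen with earlier results of these data known. Named genes were the 12 higher and 12 lower (10 qualified) with the smallest adjusted p and at least 100 CPM in the higher class, leaving out Xist, mitochondrial, haemoglobin and unnamed genes, and up to 6 per list with the smallest p. For both injury comparisons, 5 in each direction were allowed. Genes described as differing between libraries were chosen after their values were seen. Alternatives were other tools, filters, gates, thresholds, depth matching and leaving out libraries. Some genes are not reported here.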

Additional observations from a re-analysis of the deposited data

Results flagged for a closer look

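The injury difference of Apoe differed between border-type macrophages and the other optic nerve cells, with a limma interaction of -3.16 (mean ln value, 3 libraries). For Apoc1 the interaction was -1.47. In both genes the difference between injured and uninjured nerve was smaller in border-type macrophages, and 1 uninjured library entered the fit. Uninjured nerve 4, which did not enter, held 37230 Apoe CPM in its 1 border-type macrophage and 12540 in its other cells.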

How the results depend on the processing

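For border-type macrophages against other cells, 144 genes were called, 99 with edgeR, 104 with DESeq2, 81 with no replicate block, 0 with all genes that had a UMI in both tissues (1105 at an unadjusted p of 0.05), 28 with other cells matched on depth, and 48 with matching and without gated cells. Leaving out each library gave 114 to 212 calls, and edgeR without injured nerve library 3 gave 243. Of the 22 named genes, 22 stayed called with edgeR and with DESeq2, 17 with no replicate block, 16 of 21 with matching and 0 with all genes. Mag and Mal, not called by limma, turned in limma from -0.34 and -0.32 to 0.0681 and 0.0363 with matching and gating. With edgeR both were called lower against all other cells (adjusted p = 0.0260 and 0.0149). The cause of the turn was not tested.

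Injury within border-type macrophages gave 1 call, 21 with edgeR, 0 with DESeq2, 840 with all genes (the cause was not tested), 0 with all nerve libraries, 5 with those in edgeR and 0 with 4 or more rule genes. With all nerve libraries, leaving out each in turn gave 0 to 658 calls. The interaction gave 2 calls, 24 with edgeR, 0 with DESeq2, 0 with all genes (1189 at an unadjusted p of 0.05), 5 with all nerve libraries, 1 with 4 or more rule genes and 1 with no replicate block. Leaving out a library was not run for the main injury fits, which had no residual degrees of freedom then.

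The injured minus uninjured share was -8.05 points and -8.72 to -7.38 without an injured nerve library, -16.4 without uninjured nerve 4, and turned to 0.281 without uninjured nerve 2. The optic nerve minus retina share ran from 3.85 to 20.5 points when a library was left out. For the shares and the injury comparison, no paired analysis was possible because injured and uninjured libraries share no number and the permutation has no block. Alternatives with the either-class filter (172 calls), edgeR with matching (149), matching with gates, edgeR without injured nerve 3 and all nerve libraries in edgeR or with 1 left out were chosen after seeing the data. Among the fitted libraries depth limits injured nerve 1 most, with 3 counts worth 57.7 CPM, and in the 1 cell of uninjured nerve 4 they are worth 338.5 CPM.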

Other observations

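Proliferation genes summed to 2156 CPM in the 19 border-type macrophages of injured nerve library 3, against 288 in injured nerve 1 and 438 in uninjured nerve 2. Mki67, a marker of cycling cells, was seen in 3 of the 19 cells and in 0 of the other 46 fitted cells, and Top2a came from 1 cell there. Ccr1, a chemokine receptor that missed the expression filter, held 135, 146 and 152 CPM in border-type macrophages of injured nerve 1, injured nerve 3 and uninjured nerve 2 against 0, 2.32 and 47.2 in the other cells, with no test. The complement receptor Vsig4 held 115, 0 and 233 CPM in border-type macrophages and 0 in the other cells of all 3 libraries. Cd209f, Marco and Ppbp had no UMI in these cells.

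Further gene groups of border-type macrophages against the other cells gave few calls with limma. Of 16 growth factor and matrix genes tested, 3 rose and 0 fell (Tgfbi, Emp1 and Sdc4). Among 11 haem and iron genes 1 rose, the copper-carrying ferroxidase Cp. Sdc4 passed neither edgeR (adjusted p = 0.455) nor the depth-matched limma fit (adjusted p = 0.449). Nor did Cp (adjusted p = 0.196 and 0.224), which passed the expression filter only through the border-type macrophages. In injured nerve 3 Cp held 23.65 CPM in them against 43.9 in the other cells. Of 24 lysosomal genes 2 rose, Lyz2 and the protease Ctsc, while edgeR called 1 higher and 3 lower, Ctsd and Cst3 among them. Of 10 alternative activation genes 1 rose and of 10 heat shock genes 1 rose, with 0 called by edgeR in either list. The share over all genes tested was 2.94%.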
